A study of Mus musculus with 4 samples.

Results

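The 31 genes described here make cholesterol or control its amount, and they were chosen by name: 20 enzymes from acetyl units to cholesterol and its isoprenoid branch point, 5 genes of the SREBP control system, 4 sterol carriers or exporters and 2 liver X receptors. They are 31 of 28104 gene names on the array, read by 56 probes of 60 bases. Whole brains were taken from fetuses of C57BL/6J mice. In the food deprivation (FD) group the dams had no food overnight on gestation day 17. In the food restriction (FR) group chow was cut to 50% of the control intake between gestation days 10 and 17, and fetuses were delivered on gestation day 18. That day is named for FR and not for FD. The control dams ate freely. RNA of 5 fetuses was pooled per condition, and a treated and a control pool were compared on a pair of two-colour arrays, the dyes being swapped on the second. Each comparison is therefore 1 treated pool against 1 control pool measured on 2 arrays, so the difference has no biological replicate, no test was made and no p-value is given. The sources used here do not state whether FD and FR shared a control pool.

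Cholesterol is built in the endoplasmic reticulum from acetyl-CoA through mevalonate, isoprenoid diphosphates, squalene and lanosterol. Plasma lipoproteins hardly cross the blood-brain barrier, so the developing brain makes most of its own sterol, for growing membranes and later for myelin. When membrane sterol is low, Scap carries SREBP precursors (products of Srebf1 and Srebf2) to the Golgi for cleavage, and the released factors switch on the genes of the pathway. Insig proteins hold Scap back when sterol is plentiful. Liver X receptors sense oxysterols and switch on export genes such as Abca1, Abcg1 and Apoe.

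Promoter sequence was available for 26 of the 31 genes in RefSeq's tables (GRCm38.p6), and the 250 bases before the start site were searched on both strands. The genes not matched were Fdps, Fdft1, Sqle, Stard4 and Abcg1. The sterol regulatory element letters TCACNCCAC were found in 1 member gene, Hmgcs1, against 1.29% of the 12096 genes measured on the arrays that have a promoter in the table. The NF-Y box CCAAT, bound by a factor that acts with SREBP, lay in 20 of 26 members (76.9%), against 39.9% of the measured genes. The Sp1 box GGGCGG lay in 21 of 26 members (80.8%), against 60.1% of the measured genes. The shares over all 27025 genes of the table were 1.22%, 37.5% and 35.4%. None of these motifs contains another, overlaps between matches were allowed, and a match describes the letters only. Sequences of 4 enzyme genes whose ratios are given below are shown, with the matched motifs, in either direction, in capitals. Hmgcs1 lies on the + strand at chr13:119690101-119690350, Idi1 on the + strand at chr13:8885356-8885605, Hsd17b7 on the - strand at chr1:169969206-169969455 and Ebp on the - strand at chrX:8193513-8193762.
Hmgcs1: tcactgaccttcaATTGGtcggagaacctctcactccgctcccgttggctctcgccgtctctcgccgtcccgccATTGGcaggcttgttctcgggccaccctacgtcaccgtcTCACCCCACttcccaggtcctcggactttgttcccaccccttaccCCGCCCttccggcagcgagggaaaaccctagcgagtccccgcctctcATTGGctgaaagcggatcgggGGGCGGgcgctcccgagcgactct
Idi1: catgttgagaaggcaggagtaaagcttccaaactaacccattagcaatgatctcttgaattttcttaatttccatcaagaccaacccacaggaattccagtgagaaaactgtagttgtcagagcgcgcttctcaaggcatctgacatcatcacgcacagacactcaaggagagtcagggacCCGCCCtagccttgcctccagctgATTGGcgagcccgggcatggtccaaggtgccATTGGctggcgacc
Hsd17b7: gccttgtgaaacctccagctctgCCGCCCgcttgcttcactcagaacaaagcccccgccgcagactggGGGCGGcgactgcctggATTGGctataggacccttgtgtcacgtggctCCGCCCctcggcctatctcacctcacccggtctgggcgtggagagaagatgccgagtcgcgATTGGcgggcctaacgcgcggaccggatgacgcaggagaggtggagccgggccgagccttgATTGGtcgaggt
Ebp: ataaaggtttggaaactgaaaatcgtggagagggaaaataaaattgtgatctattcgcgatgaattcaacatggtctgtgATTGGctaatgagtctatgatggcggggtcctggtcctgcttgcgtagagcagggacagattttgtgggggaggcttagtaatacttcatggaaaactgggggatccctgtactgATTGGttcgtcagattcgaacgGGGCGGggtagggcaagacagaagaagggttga
Hmgcs1 holds the sterol regulatory element as TCACCCCAC, starting at position -137 from the start site, with 3 CCAAT and 2 GGGCGG matches. Hsd17b7 holds 3 CCAAT and 3 GGGCGG matches, and Idi1 and Ebp each hold 2 CCAAT matches and 1 GGGCGG match.

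Between 71.4% and 85.3% of the 43379 non-control spots were well above background in each channel, and the number of arrays limits the precision. All 8 neuron and all 7 neural progenitor markers had a probe well above background on all 4 arrays. The 2 arrays of a comparison differed across all genes: their log2 difference divided by 2 had an SD of 0.13 in both FD and FR. The r between arrays across genes was 0.13 in FD and 0.41 in FR, where genes are not independent replicates. Spots with an outlier flag were left out, which removed 25.2 to 57.1% of the spots in the top decile of brightness per array and 0.27 to 0.37% of those below the median brightness. Sqle and Msmo1 were then not measured in FD, and Sqle, Msmo1, Pmvk, Scap and Abca1 were not measured in FR. Counts are therefore given first with flagged spots left out, and then with them kept, a setting added after the flags had been seen, in which all 31 genes are measured. Values of single genes are those of the brightest probe with flagged spots kept, and flags are named beside them. No member spot was saturated.

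Of the synthesis enzymes, 11 of 18 measured in FD and 14 of 17 in FR were lower in the treated pool than in the control pool on both arrays. With flagged spots kept, 14 of 20 were in FD and 17 of 20 in FR. Each was lower by less than 1.5-fold on at least 1 array. In FD, 16 of 29 measured members lay below 0 on both arrays, where 23.3% of all 17945 measured genes did, and 4 lay above 0 on both, where 25.5% did. With flagged spots kept, 19 of 31 lay below 0 (22.7% of 19291 genes) and 4 above (26.3%). In FR, 17 of 26 members lay below 0 on both arrays (27.4% of 18541 genes) and 2 above (28.3%), and with flagged spots kept 20 of 31 lay below (28.2% of 20342 genes) and 5 above (28.3%). These counts rest on the loess step: with median centring in its place, 1 of 29 members lay below 0 on both arrays in FD, where 3.14% of all genes did, and 2 of 26 in FR, where 5.91% did. No member differed by 1.5-fold or more in the same direction on both arrays in either comparison or setting. Over all genes, 0.0892% were higher and 0.128% lower by that measure in FD, and 0.582% higher and 0.431% lower in FR. With flagged spots kept these shares were 0.0881% and 0.13% in FD and 0.575% and 0.511% in FR. The median log2 ratio of the members was -0.20 in FD (-0.10 and -0.18 on arrays 1 and 2) and -0.22 in FR (-0.22 and -0.19), against 0.0043 and 0.0050 for all measured genes. With flagged spots kept it was -0.20 in FD and -0.25 in FR.

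The enzymes are counted apart from the other members here, with no test of the difference. With flagged spots left out, 11 of 18 measured enzymes lay below 0 on both arrays in FD (23.3% of all genes), and 14 of 17 in FR (27.4%). In each comparison 0 lay above. In this setting the probe read for a gene can differ between FD and FR, so the FD and FR counts are not like for like. Lss and Nsdhl were split in FD on the probes read there. Their probes read in FR were below 0 on both FD arrays too, at -0.62 and -0.32 for Lss and -0.24 and -0.28 for Nsdhl. Of the 20 enzymes, with flagged spots kept, 14 lay below 0 on both arrays in FD and 0 above, with a median of -0.22. In FR, 17 lay below 0 and 1 above, with a median of -0.27. Of all genes in that setting, 22.7% lay below 0 on both arrays in FD and 28.2% in FR. The other members split. With flagged spots left out, 5 of 11 lay below and 4 above in FD. In FR 3 of 9 then lay below and 2 above, with a median of -0.04. With flagged spots kept, of 11, 5 lay below and 4 above in FD and 3 below and 4 above in FR, with a median of 0.015 in FR. Less RNA per cell and fewer cells of a type cannot be told apart in whole tissue.

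**Figure D1:**
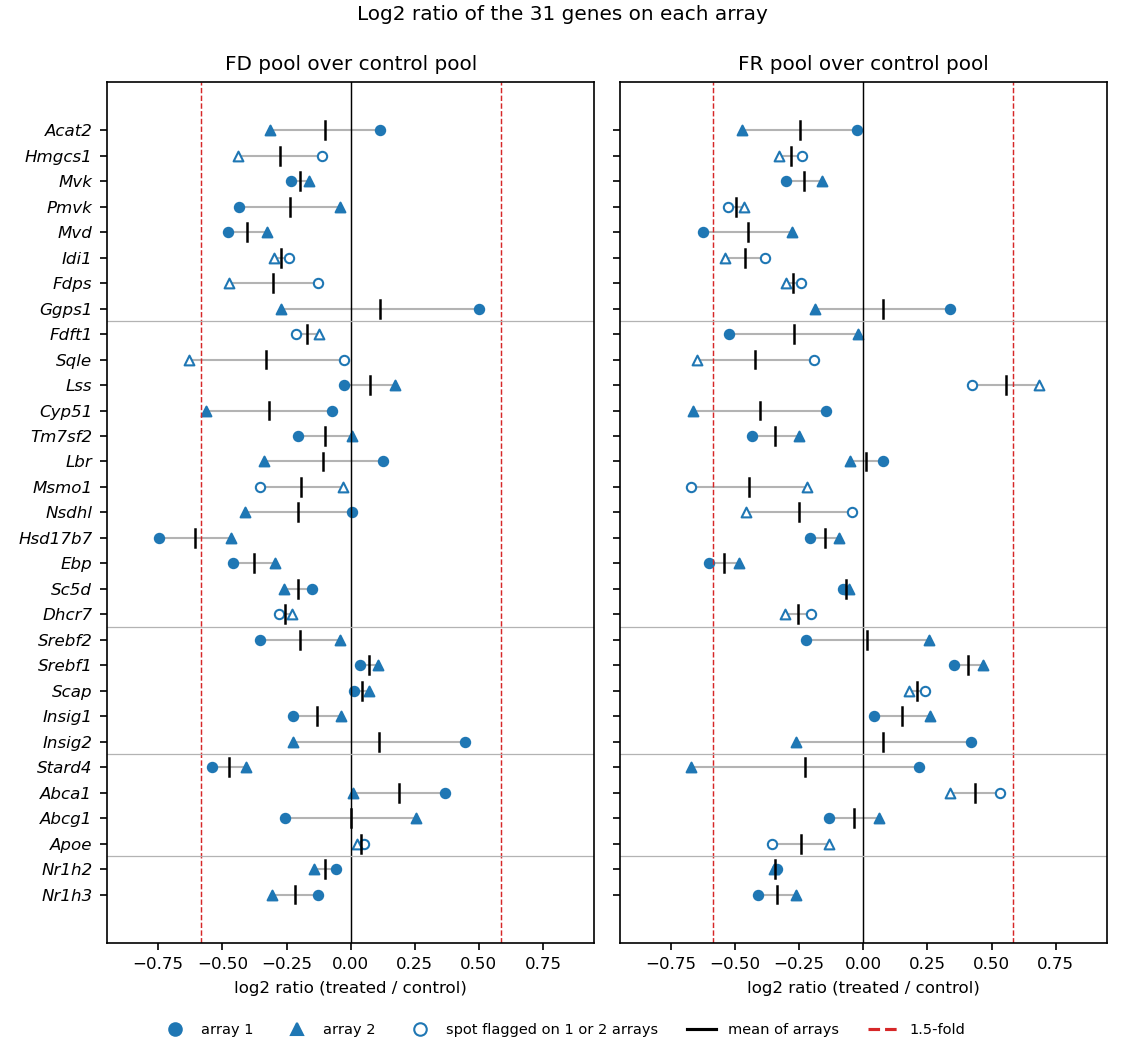
Log2 ratio of treated over control pool for each of the 31 genes, in pathway order, on array 1 (circles) and array 2 (triangles), with FD on the left and FR on the right. Open symbols are probes flagged on 1 or 2 arrays, black bars are the means of both arrays, dashed lines mark 1.5-fold and grey lines part the roles. Most enzymes lie left of 0 in both panels, and no gene has both arrays beyond a dashed line.

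**Figure D2:**
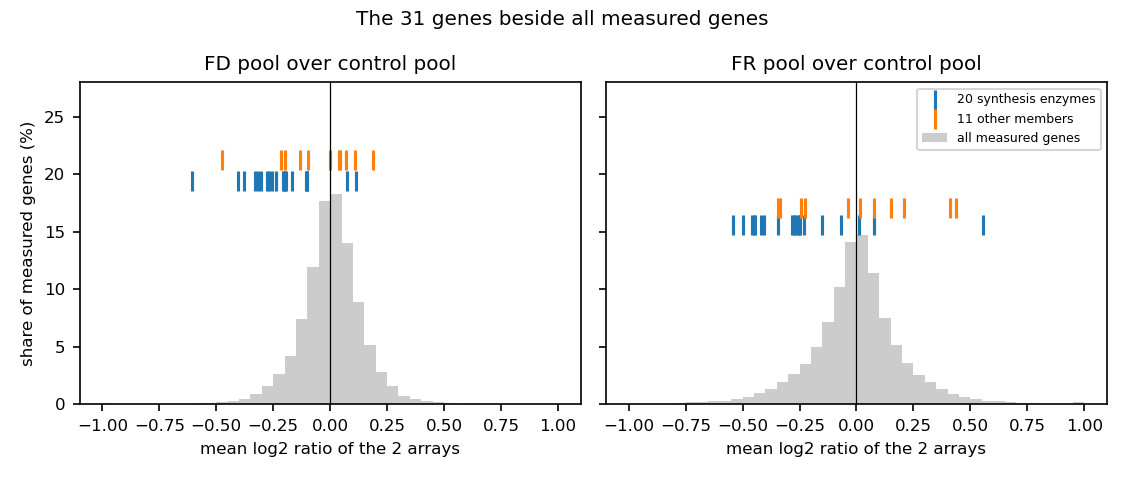
Mean log2 ratio of both arrays for the 20 enzymes (blue ticks) and the 11 other members (orange ticks) above the histogram of all measured genes (grey, percent of genes per bin of 0.05), flagged spots kept, values beyond 1 set to the end bins. The enzyme ticks gather below 0, around medians of -0.22 in FD and -0.27 in FR, while all genes centre near 0.

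The mevalonate and prenyl diphosphate enzymes come first in the pathway. Acat2, which joins acetyl-CoA units, had log2 ratios of 0.11 and -0.32 in FD and -0.03 and -0.47 in FR. Hmgcs1, which makes HMG-CoA, had log2 levels of 14.58 and 14.47 in the FD pool, against 14.69 and 14.91 in its control pool, and 14.63 and 14.58 in the FR pool, against 14.87 and 14.91 in its control pool. Its treated level was below its control level on each of the 4 arrays, with mean log2 ratios of -0.28 in FD and -0.28 in FR. That probe was flagged on 1 array of each comparison, and a dimmer unflagged probe gave -0.25 and -0.24. The dimmest probe, for a cDNA clone, had a mean of -0.34 in FD and opposed FR arrays, at 0.21 and -0.21.

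Mvk and Pmvk phosphorylate mevalonate, and Mvd decarboxylates the product to isopentenyl diphosphate. Mvk had log2 ratios of -0.23 and -0.16 in FD and -0.30 and -0.16 in FR. Its dimmer probe had arrays of opposite sign in each comparison, -0.20 and 0.03 in FD and -0.42 and 0.13 in FR. Pmvk had log2 levels of 12.83 and 12.99 in the FD pool, against 13.27 and 13.03 in its control pool, and 12.76 and 12.69 in the FR pool, against 13.29 and 13.16 in its control pool. The FD arrays lay apart, at -0.43 and -0.04, while the FR arrays gave -0.53 and -0.47, from a probe flagged on 1 FR array. Mvd had log2 levels of 10.15 and 10.23 in the FD pool, against 10.63 and 10.55 in its control pool, and 10.27 and 10.56 in the FR pool, against 10.89 and 10.83 in its control pool. The treated level of Mvd was lower on every array, by a mean of -0.40 in FD and -0.45 in FR, or 1.32-fold and 1.37-fold lower.

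Idi1 interconverts the 2 five-carbon isoprenoid units, and Fdps joins them to farnesyl diphosphate. Idi1 had log2 levels of 12.50 and 12.49 in the FD pool, against 12.74 and 12.79 in its control pool, and 12.46 and 12.22 in the FR pool, against 12.84 and 12.76 in its control pool. The mean log2 ratio was -0.27 in FD and -0.46 in FR, from a probe flagged on 1 array of each comparison, and the dimmer unflagged probe gave -0.36 and -0.20. Fdps gave -0.30 in FD and -0.27 in FR on its flagged RefSeq-targeted probe, while a dimmer probe for a cDNA clone gave -0.21 in FD and 0.13 in FR. Ggps1, which leads to geranylgeranyl diphosphate and away from sterols, had ratios of opposite sign on the arrays of each comparison, 0.50 and -0.27 in FD and 0.34 and -0.19 in FR.

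Squalene synthesis and the first steps after it carry the pathway into sterols. Fdft1, squalene synthase, had log2 ratios of -0.21 and -0.12 in FD, from a probe flagged on 1 FD array, and -0.52 and -0.02 in FR. Sqle, squalene epoxidase, had log2 levels of 12.81 and 12.44 in the FD pool, against 12.84 and 13.07 in its control pool, and 12.93 and 12.56 in the FR pool, against 13.12 and 13.21 in its control pool. Its mean log2 ratio was -0.33 in FD and -0.42 in FR, measured only with flagged spots kept, and the larger shift lay on array 2 each time.

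Lss closes the ring to give lanosterol, and its probes did not agree. The brightest probe, designed on a cDNA clone and placed at chr10:76019513-76019572 (mm9, + strand), gave log2 ratios of -0.03 and 0.17 in FD and 0.42 and 0.69 in FR. The RefSeq-targeted probe at chr10:76015992-76016051 gave -0.62 and -0.32 in FD and -0.49 and -0.28 in FR. The second RefSeq-targeted probe, at chr10:76013409-76013468, gave -0.24 and -0.36 in FD and -0.04 and -0.13 in FR. Both RefSeq-targeted probes were thus below 0 on all 4 arrays, and the single enzyme above 0 in FR rests on the clone probe, flagged on 1 FR array. No exon annotation of mm9 was used here, so the direction of Lss is uncertain.

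Most enzymes that trim and rearrange lanosterol had means below 0. Cyp51, the lanosterol demethylase, had log2 ratios of -0.07 and -0.56 in FD and -0.15 and -0.66 in FR, and the means of its 3 probes ran from -0.32 to -0.27 in FD and from -0.40 to -0.29 in FR. Tm7sf2 and Lbr both reduce the C14 double bond, and Lbr also anchors chromatin at the nuclear envelope. Tm7sf2 had a mean of -0.10 in FD and -0.34 in FR, where both arrays were low, at -0.43 and -0.25. Lbr had means of -0.11 in FD and 0.012 in FR, with arrays of opposite sign in each comparison.

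Msmo1, the C4 methyl oxidase, had log2 levels of 13.31 and 13.58 in the FD pool, against 13.66 and 13.61 in its control pool, and 13.16 and 13.39 in the FR pool, against 13.83 and 13.61 in its control pool. The mean log2 ratio was -0.19 in FD and -0.44 in FR, measured only with flagged spots kept. Nsdhl, the C4 decarboxylase, had means below 0 on all 4 of its probes, from -0.37 to -0.20 in FD and from -0.38 to -0.25 in FR, its brightest probe being flagged on 1 FR array.

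Hsd17b7, the ketoreductase of the same complex, had the lowest mean of the 31 genes in FD. Its probe at chr1:171882591-171882650 (mm9, - strand) had log2 levels of 9.19 and 9.31 in the FD pool, against 9.94 and 9.78 in its control pool, a mean log2 ratio of -0.61 or 1.52-fold lower. On array 2 the ratio was -0.47, short of 1.5-fold. The other probe, at chr1:171880203-171880262, gave -0.23 in FD. In FR the probes gave -0.35 and -0.15, so all were below 0 and their sizes differed.

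Ebp, the sterol isomerase, had log2 levels of 11.51 and 11.58 in the FD pool, against 11.97 and 11.87 in its control pool, and 11.28 and 11.38 in the FR pool, against 11.88 and 11.87 in its control pool. Its single, unflagged probe (chrX:7762463-7762522, mm9, - strand) was lower in the treated pool on all 4 arrays, with means of -0.38 in FD and -0.54 in FR, the lowest of the 31 genes in FR. Sc5d, the C5 desaturase, had means of -0.21 in FD and -0.07 in FR, while a second probe for a cDNA clone, flagged on 1 FD array, gave -0.09 and -0.40. Dhcr7, the reductase that ends one route to cholesterol, had log2 ratios of -0.28 and -0.23 in FD and -0.21 and -0.31 in FR, from a probe flagged on all 4 arrays, and its dimmer unflagged probe gave means of -0.22 and -0.19.

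**Figure D3:**
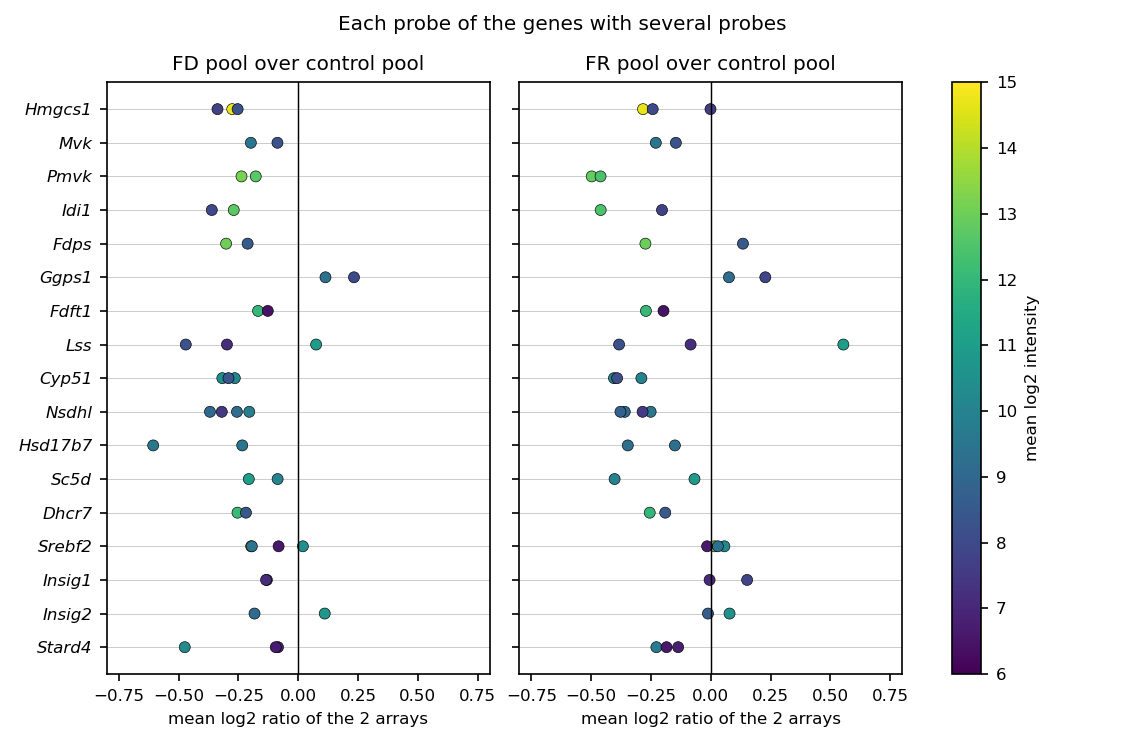
Mean log2 ratio of both arrays for every probe well above background of the genes with several probes, FD on the left and FR on the right, coloured by mean log2 intensity. The probes of Nsdhl and Cyp51 lie together below 0, whereas those of Lss lie on both sides of 0.

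Of the 17 genes with several probes, the signs of the probe means agreed in 14 in FD and 12 in FR, and differed in 3 and 5.

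The 5 genes of the SREBP system had medians of 0.04 in FD and 0.15 in FR with flagged spots kept. Srebf2, whose product is the main activator of the synthesis genes, had log2 levels of 13.25 and 13.36 in the FD pool, against 13.60 and 13.41 in its control pool, and 13.46 and 13.70 in the FR pool, against 13.68 and 13.45 in its control pool. On this brightest probe Srebf2 was low on both FD arrays (mean -0.20) and split on the FR arrays (-0.22 and 0.26). Its 4 probes differed in sign, with means from -0.20 to 0.02 in FD and from -0.02 to 0.06 in FR. Srebf1, whose products mainly drive fatty acid genes, had log2 levels of 12.18 and 12.19 in the FD pool, against 12.14 and 12.08 in its control pool, and 12.37 and 12.50 in the FR pool, against 12.02 and 12.03 in its control pool. Its mean log2 ratio was 0.07 in FD and 0.41 in FR. Scap had means of 0.04 in FD and 0.21 in FR, the FR value from a flagged probe. Insig1, itself a known SREBP target, had log2 ratios of -0.23 and -0.04 in FD and 0.04 and 0.26 in FR, and its second probe gave means of -0.13 in FD and -0.0048 in FR, with arrays of opposite sign in FR. Insig2 had arrays of opposite sign in each comparison on its brightest probe, 0.45 and -0.22 in FD and 0.42 and -0.26 in FR. Its second probe gave -0.35 and -0.02 in FD and -0.08 and 0.06 in FR.

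The carriers and exporters split. Stard4, which moves cholesterol between membranes, had log2 levels of 9.88 and 10.02 in the FD pool, against 10.42 and 10.43 in its control pool, and 9.84 and 9.61 in the FR pool, against 9.62 and 10.28 in its control pool. It was lower on both FD arrays (mean -0.47) and the FR arrays opposed each other, at 0.22 and -0.67, while its 2 dim probes gave -0.08 and -0.09 in FD and -0.14 and -0.18 in FR. Abca1, the exporter that loads cholesterol on apolipoproteins, had log2 levels of 10.74 and 10.53 in the FD pool, against 10.37 and 10.52 in its control pool, and 10.91 and 10.76 in the FR pool, against 10.37 and 10.43 in its control pool. Its mean log2 ratio was 0.19 in FD and 0.43 in FR, the FR value from a flagged probe. Abcg1 had arrays of opposite sign in both comparisons. Apoe, the main lipoprotein protein of brain, had log2 ratios of 0.05 and 0.03 in FD and -0.36 and -0.13 in FR, from a probe with flagged spots on all 4 arrays.

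The liver X receptors lay below 0 on every array of both comparisons, each read by 1 probe. The Nr1h2 mean of -0.10 in FD lay within the SD of 0.13 over all genes. Nr1h2 had log2 ratios of -0.06 and -0.14 in FD and -0.34 and -0.35 in FR. Nr1h3 had -0.13 and -0.31 in FD and -0.41 and -0.26 in FR, from a dim probe with a mean log2 intensity of 7.22 in FD and 7.18 in FR. The FR arrays of Nr1h2 lay closer together than those of any other member.

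FD was set against FR by subtracting the FR log2 ratio on the array of the same dye orientation, on probes measured on all 4 arrays. Of 26 members, 8 were above 0 on both array pairs, where 31.2% of 16741 genes were, and 7 below, where 30.1% were. With flagged spots kept, 12 of 31 were above 0 (32.4% of 19015 genes) and 7 below (29.4%), so the members' shares lay near those of all genes. The median difference was 0.03 over the members. Srebf1, here and in the other values with flagged spots kept, differed by -0.32 and -0.36 on the array pairs, Insig1 by -0.27 and -0.30, Srebf2 by -0.13 and -0.30, and Scap by -0.23 and -0.11. On their brightest probes these 4 genes and Abca1 (-0.17 and -0.33) were thus lower in FD than in FR. So were the clone probe of Lss (-0.45 and -0.51), the largest difference, and Sc5d (-0.07 and -0.20). The second Sc5d probe went the other way, with means of -0.09 in FD and -0.40 in FR. Tm7sf2 (0.23 and 0.26), Msmo1 (0.32 and 0.19), Nr1h2 (0.28 and 0.21) and Apoe (0.41 and 0.16) were higher in FD than in FR. Pmvk (0.09 and 0.43) and Idi1 (0.14 and 0.24) were also higher. For Idi1 this rests on the flagged probe, and its unflagged probe gave -0.02 and -0.30. With flagged spots left out, 5 of 17 measured enzymes were above 0 on both pairs and 4 below. Of 9 other members 3 were then above and 3 below. With flagged spots kept, of the 20 enzymes 9 were above 0 on both pairs and 2 below. Of the 11 other members 3 were then above and 5 below. The ratios may share a control pool, so the differences carry no test.

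**Figure D4:**
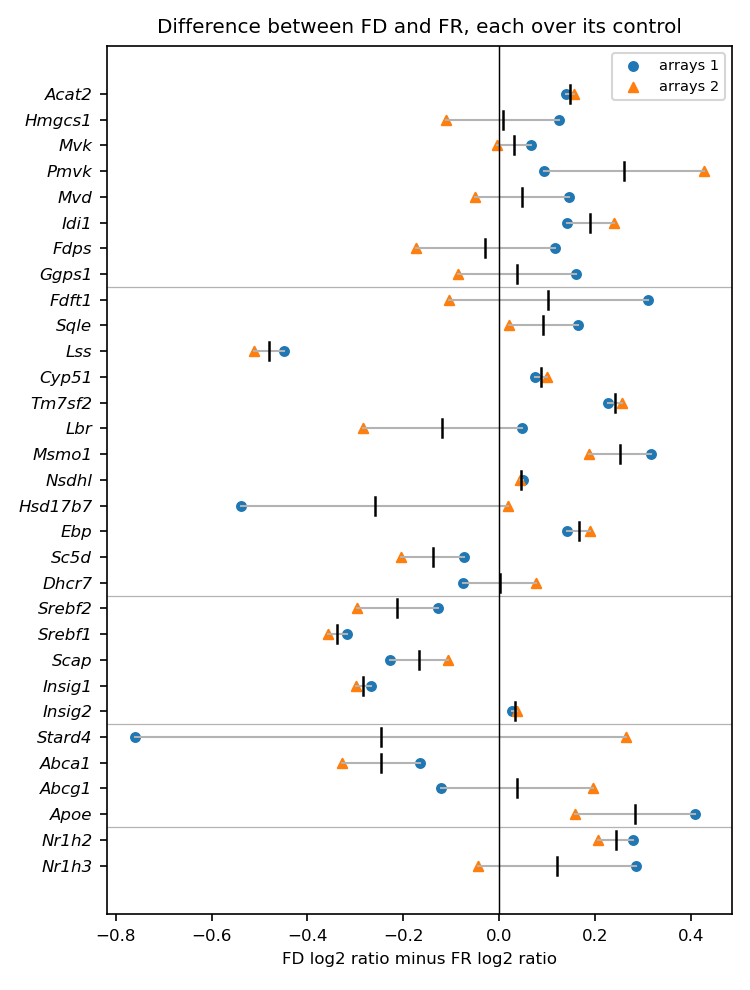
FD log2 ratio minus FR log2 ratio for each of the 31 genes on the array pairs of equal dye orientation (circles, arrays 1, and triangles, arrays 2), black bars being their means, flagged spots kept. Srebf1, Insig1, Srebf2, Scap, Abca1, Lss and Sc5d lie left of 0 on both pairs, and 12 genes, among them Tm7sf2, Msmo1, Nr1h2 and Apoe, lie right of it.

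Neighbouring pathways were read from lists chosen by function, with flagged spots left out, as were the marker lists. Of the fatty acid and NADPH genes known as SREBP targets, 8 of 10 measured lay below 0 on both arrays in FD and 1 above, with a median of -0.21. In FR 4 of 10 lay below and 3 above, with a median of -0.21 whose arrays gave -0.30 and 0.03. With flagged spots kept the FR arrays gave medians of -0.30 and -0.02 for this list. Acly, which makes cytosolic acetyl-CoA, had -0.46 and -0.37 in FD. Scd1, a desaturase, had -0.12 and -0.69 in FD and -0.24 and -0.60 in FR. Aacs, an acetoacetate ligase, had -0.45 and -0.15 in FD, and Acss2, an acetyl-CoA synthetase, had -0.35 and -0.55 in FR. Tmem97, a sterol-responsive membrane protein, had -0.27 and -0.30 in FR.

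Genes of SREBP processing and sterol-sensing turnover had medians of 0.08 in FD and 0.16 in FR. Ufd1, part of the complex that extracts proteins for degradation, had 0.44 and 0.51 in FR, and Mbtps1, the protease that first cleaves SREBP, had 0.13 and 0.42. Sterol uptake, storage, transport and oxidation genes had medians of 0.02 in FD and 0.03 in FR. Vldlr, a lipoprotein receptor, had 0.41 and 0.66 in FR, and Apod, a lipid carrier, had 0.16 and 0.56 in FD. The non-sterol isoprenoid branch had medians of 0.04 in FD and -0.03 in FR. Pdss1, of ubiquinone side chain synthesis, had 0.31 and 0.32 in FD and 0.10 and 0.51 in FR, and Dhdds, of dolichol synthesis, had -0.79 and -0.19 in FR.

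**Figure D5:**
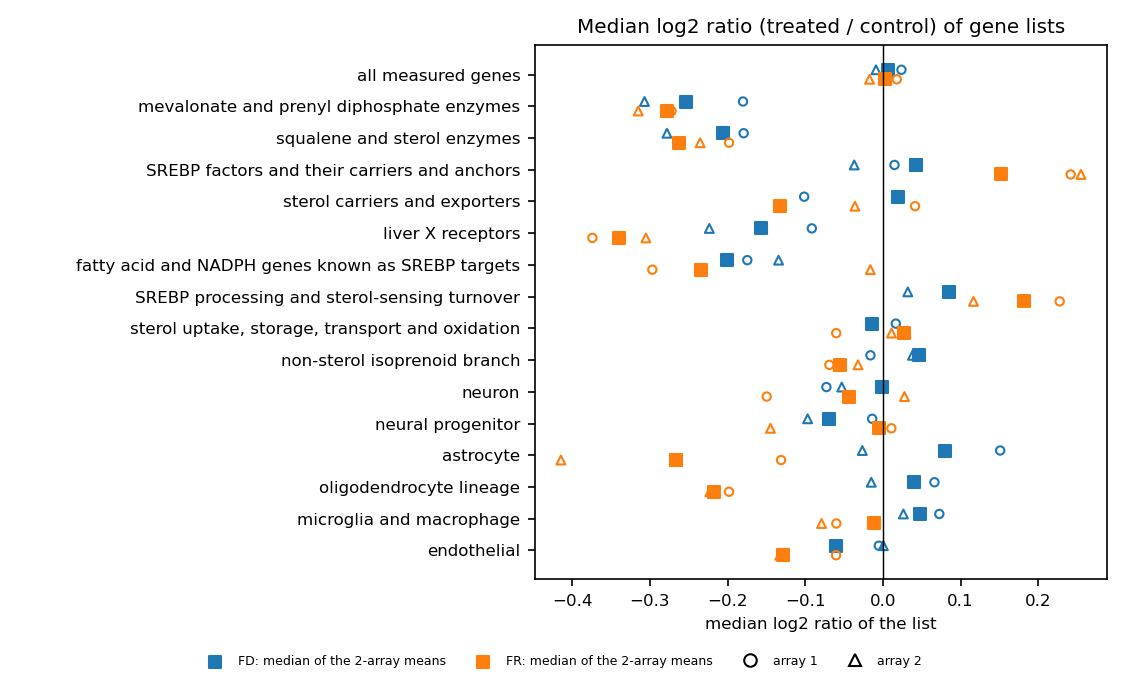
Median log2 ratio of treated over control pool for each gene list in FD (blue) and FR (orange), flagged spots kept. Squares are medians of the 2-array means, and open circles and triangles are the medians on arrays 1 and 2. Both enzyme lists lie below 0 on every array, and all measured genes lie near 0. The liver X receptors and the fatty acid and NADPH list also lie below 0 on every array, the latter at -0.02 on FR array 2.

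Markers of other tissues and cell types differed between the pools in both comparisons. In FD, 7 of 7 measured skeletal muscle markers were lower by 1.5-fold or more on both arrays, with a median of -2.13, and their summed level was 1961 and 1935 in the FD pool, against 8552 and 8317 in its control pool, summed levels here being taken with flagged spots kept. Myl1 had -3.08 and -2.77 and Tnnc2 had -2.66 and -2.47. Of 5 brown fat markers 3 were lower by that measure, Fabp4 having -3.22 and -2.95 and Ucp1 -1.62 and -1.44. Of 6 liver and plasma protein markers 2 were higher by it, with a median of 0.59, Ahsg having 0.84 and 0.91. The 3 measured erythroid markers had a median of -0.37, Slc4a1 having -0.42 and -0.41. In FR the muscle median was 0.02, with summed levels of 2492 and 2465 in the FR pool, against 2554 and 2472 in its control pool. The 6 liver and plasma protein markers measured with flagged spots left out were all above 0 on both FR arrays, with a median of 0.30. Afp had 0.84 and 0.60 and Ahsg 0.45 and 0.38. With flagged spots kept Ttr was measured too, at -0.26 and -0.58. The summed level of these 7 markers was 3917 and 3182 in the FR pool, against 4022 and 3793 in its control pool. The brown fat median was 0.07 in FR, with Cidea at -0.67 and -0.69, and the erythroid median was 0.11. Several glial markers were low in FR. The oligodendrocyte lineage median was -0.23, with 7 of 10 below 0 on both arrays and Olig1 at -0.83 and -0.60, and the astrocyte median was -0.24, with 5 of 9 below 0 and 3 above, S100b at -0.65 and -0.34. In FD those medians were 0.05 and 0.02. The summed level of the oligodendrocyte list was 10284 and 9927 in the FR pool, against 11625 and 11881 in its control pool. The part of these markers in the members' values was not tested.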

How the data were processed

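RNA levels in pooled fetal brain were measured on 4 two-colour Agilent arrays of 1 slide. Per the submitters' processing notes, spots were read with Agilent Feature Extraction 9.5.3.1. Per the file headers, the deposited scanner files hold mean spot intensity and median local background per channel, a log10 ratio of red over green already background-subtracted and dye-normalised, and flags of 0 or 1 per spot for outliers, saturation and signal well above background. The authors' deposited value table states no unit. Set against the scanner ratio on spots well above background it correlated at r = 1 or -1 on every array, with differences up to 5.5e-06, so the values the authors deposited are on a log2 scale, treated over control, with no further centring. Its column medians were -0.033, 0.034, -0.029 and 0.0096. The build in the file headers is mm9.

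Intensities were corrected with normexp (offset 50) and loess-normalised within each array in limma 3.58.1 (R 4.3.3), and every ratio was turned to treated over control. Control spots had weight 0. Spots with an outlier flag, or with local background above 2 times its median on that array (3, 0, 0 and 42 spots), were left out. Channel levels are log2 intensities after loess and Aquantile scaling. A gene was measured where a probe exceeded background in each channel of each array, by the scanner's flag, and the brightest such probe stands for it. Of 41174 probes, 26869 were named by accession, 5075 by current symbol, 817 by older symbol and 56 by the member list, and 8357 kept the file's name. The size rule, 1.5-fold in the same direction on both arrays, was tested on simulated data. The planted changes were larger than the mean change of any member. How often the rule finds changes near 1.5-fold was therefore not tested. With 1 pool per condition no test was made. All 31 members are named, with up to 3 genes of each neighbouring list and 2 of a marker list by absolute mean. The members and lists were chosen with earlier results of these data known. Alternatives were the background correction, the normalisation, the authors' values, the filter, the probe rule, the fold and each array alone.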

Additional observations from a re-analysis of the deposited data

Results flagged for a closer look

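For 2 members every FD array lay on one side of 0 and every FR array on the other, and the difference was not tested. The share of all genes with such opposite signs was not counted. The count of 2 therefore has no background beside it and is not read as a result about the members. Over all measured genes, 25.5% lay above 0 and 23.3% below 0 on both FD arrays, and 28.3% and 27.4% on both FR arrays. Insig1 was below 0 on both FD arrays (-0.23 and -0.04) and above 0 on both FR arrays (0.04 and 0.26), an FD minus FR difference of -0.28. Its second, dimmer probe gave means of -0.13 in FD and -0.0048 in FR. Apoe was above 0 on both FD arrays (0.05 and 0.02) and below 0 on both FR arrays (-0.34 and -0.09), a difference of 0.25, which was 0.28 with flagged spots kept. Several of these single-array ratios lie within 0.13 of 0, the SD over all genes of the array difference divided by 2. That SD describes a mean of 2 arrays, so it understates the spread of a single array.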

How the results depend on the processing

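With flagged spots kept the FR median was -0.25, and no call of 1.5-fold was added. With median centring in place of loess, 1 member lay below 0 on both arrays in FD and 2 did in FR, where 3.14% and 5.91% of all genes did, and the medians were -0.11 in FD and -0.32 in FR. The FD minus FR median was then 0.15, against 0.09 for all genes. Loess is fitted to the dependence of the ratio on intensity within each array. The counts on both arrays depend on that step, and the reason was not tested. With normexp fitted on all spots FD values moved by at most 0.00024, but on FR array 2, with 42 spots of bright local background, the fit compressed dim signals: the 5th percentile and median of log2 intensity became 9.80 and 9.84, against 5.93 and 6.90. In that failed fit 1 FR member was lower by 1.5-fold and the median was -0.12. The scanner's log ratio and the authors' table each gave 1 such FR member and a median of -0.26. The cause was not tested. At a lower threshold, a log2 ratio of 0.32 on both arrays, 3 members were lower in FD (0.585% of all genes) and 3 in FR (2.71%), and 1 was higher in FR, Srebf1 (2.77%). On 1 array alone, members lower by 1.5-fold numbered 0 to 1 in FD, where 0.322 and 0.574% of all genes were, and 2 to 3 in FR, where 1.23 and 1.5% were, medians ran from -0.19 to -0.10 in FD and from -0.30 to -0.17 in FR, and the FD minus FR median from -0.068 to 0.064. The member medians of FD and FR stayed below 0 under every alternative run. No paired analysis was possible because the replicate numbers mark dye orientation within 1 pair of pools per comparison. Depth is not counted on arrays, and 2 arrays of the same RNA show technical spread only.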
